A study of Mus musculus with 16 samples.

Results

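The 8 transplanted PyMT mammary tumours given an antibody against PD-L1 were set against the 8 tumours given none. The arm with the antibody held 4 tumours given anti-PD-L1 alone and 4 given the combination of anti-PD-L1 and sonidegib. The arm without it held 4 tumours given vehicle and 4 given sonidegib alone. All 16 libraries of the series were used, and the labels alone placed them in the arms. All tumours carried the MMTV-PyMT transgene, in which the mouse mammary tumour virus promoter drives polyoma middle T antigen in mammary epithelium. They were taken from transgenic donors 12 weeks old and grown in the mammary fat pad of FVB recipients. Doses were 5 mg/kg for the antibody and 20 mg/kg for sonidegib, an inhibitor of the Hedgehog transducer Smoothened, over 28 days. The labels name no donor or litter, so a p-value here reflects only how far these tumours spread.

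PD-L1, encoded by Cd274, is a surface ligand that engages PD-1 on T cells and restrains them. Antibodies against it are given to release that restraint. T cells then released can secrete interferon-gamma, which acts on genes for antigen presentation, guanylate-binding proteins and chemokines. The antibody acts on the protein, so the Cd274 transcript does not check the labels.

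Expression was given as FPKM, that is, fragments per kilobase of transcript per M (mega) fragments mapped. Of 55146 genes, 15105 had at least 1 FPKM in at least 4 libraries and were tested by limma on log2(FPKM + 1), with sonidegib as a second factor. Log2 differences below are antibody minus no antibody on that scale, where genes near 1 FPKM change less than in FPKM itself, and each has its standard error (SE). Library depth, as estimated from the values, ran from 33.7 to 58.5 M fragments. The tumours had the markers of luminal mammary epithelium: Epcam was at 83.8 to 424 FPKM and Krt8 at 172 to 697 FPKM over the 16 libraries. The basal keratin genes were lower, Krt5 at 0.987 to 32.0 FPKM and Krt14 at 3.30 to 44.4 FPKM. Esr1, which encodes the oestrogen receptor, was low, at 1.40 to 2.87 FPKM. Vehicle replicate 3 stood apart, with 11361 genes at 1 FPKM or more against 13107 to 14784 in the other 15 libraries. The trend of expression on gene GC content also differed between the arms: its slope averaged -1.39 ± 2.06 with the antibody and 1.39 ± 2.48 without (SD, n = 8 each, exact two-sided permutation p within sonidegib strata = 0.0233). Combination replicate 1 (2.13) had the highest slope of the antibody arm.

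Across all tumours, no gene passed the test at an adjusted p of 0.05. The 10 named genes nearest to it in the higher direction were Ccl8, Itprid1, Ifi205, Cd3g, S100a4, Aim2, Inpp4b, Ly6c1, Plac8 and Wfdc17. The genes lower with the antibody that had the lowest p included 3 chains of type IV collagen, the network-forming collagen of basement membranes. With limma and Benjamini-Hochberg adjustment 0 of 15105 genes (0%) were called, and the smallest adjusted p was 0.306. At an unadjusted p under 0.05, 1964 genes were higher (13% of those tested) and 252 lower (1.67%). Scaling by median of ratios, which sets the median shift between libraries near 0, gave 1720 higher (11.4%) and 1335 lower (8.84%). The share of these genes that were higher was thus 88.6% without scaling and 56.3% with it. The median difference of all tested genes was 0.11 on the log2 scale, -0.01 after that scaling and 0.01 without vehicle replicate 3.

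This count of 0 depended on a single library. Without combination replicate 1, 567 genes passed, 545 of them higher (3.61% of those tested) and 22 lower (0.146%), and the smallest adjusted p was 0.00214. Median-of-ratios scaling in the same 15 libraries gave 1902 calls, 1178 higher and 724 lower. Each of the other 15 libraries, left out in turn, gave 0 calls. Of the genes named below as nearest to the threshold, 10 of the 10 higher and 4 of the 10 lower passed without combination replicate 1. Both these genes and the library left out were chosen from the same values, so this count gives no separate support.

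**Figure D1:**
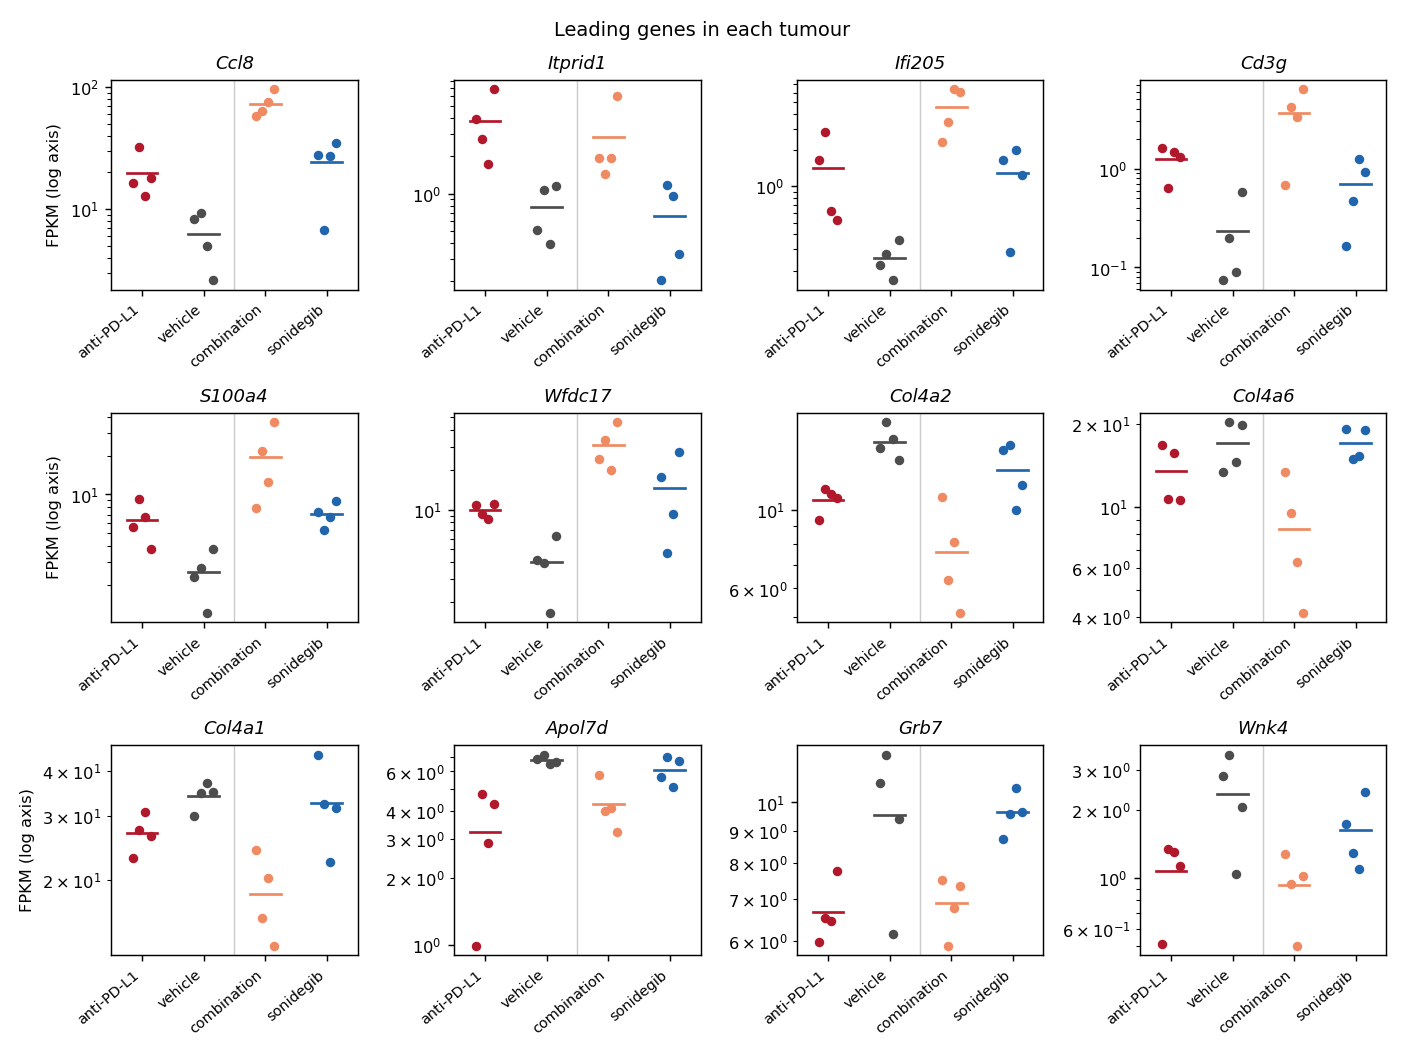
FPKM (log axis) in each tumour by group, for 6 genes higher and 6 lower with the antibody among those with the lowest p. Points are tumours and bars are group means (n = 4); anti-PD-L1 stands left of vehicle and the combination left of sonidegib. Ccl8, Itprid1 and Ifi205 do not overlap between the groups of either pair.

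Ccl8, which encodes a chemokine that attracts monocytes and T cells, had the lowest p. It was at 16.4, 32.0, 12.9 and 18.02 FPKM with anti-PD-L1, against 8.27, 9.42, 4.98 and 2.64 FPKM with vehicle. With the combination it was at 57.8, 63.2, 75.5 and 95.7 FPKM, against 27.8, 6.77, 27.5 and 34.6 FPKM with sonidegib. Neither pair of groups overlapped, and 3 of the 4 anti-PD-L1 values lay below 3 of the 4 sonidegib values. The pooled log2 difference was 1.64 (SE 0.29, unadjusted p = 2.02e-05, limma adjusted p = 0.306), with 1.54 between anti-PD-L1 and vehicle and 1.74 between the combination and sonidegib. In GRCm38 coordinates the Ccl8 gene spans 82115185 to 82116799 on the plus strand of chromosome 11.

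Itprid1 was the 1 gene whose 8 values with the antibody all lay above all 8 without (0.00662% of those tested). It was at 3.99, 2.75, 1.72 and 6.84 FPKM with anti-PD-L1, against 0.509, 1.06, 0.397 and 1.16 FPKM with vehicle. With the combination it was at 1.92, 1.44, 1.94 and 5.998 FPKM, against 0.204, 1.17, 0.954 and 0.332 FPKM with sonidegib. In the opposite direction 0 genes (0%) separated the arms. The log2 difference of Itprid1 was 1.23 (SE 0.23, unadjusted p = 4.17e-05 by limma), and it was of similar size in both pairs of groups, 1.35 without sonidegib and 1.11 with it. Its gene body spans chromosome 6 from 55836895 to 55978735, plus strand.

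Besides Ccl8 and Itprid1, only Ifi205 and Reg1 had all 4 treated values above all 4 of their controls in each pair, making 4 such genes (0.0265%), and 0 genes (0%) had the reverse. Without sonidegib 512 genes (3.39%) separated in the higher direction, and with sonidegib 73 (0.483%). Ifi205, a member of the interferon-inducible p200 family, was at 1.66, 2.82, 0.630 and 0.529 FPKM with anti-PD-L1, against 0.221, 0.272, 0.167 and 0.361 FPKM with vehicle. With the combination it was at 2.32, 3.39, 6.39 and 6.12 FPKM, against 1.66, 0.286, 1.99 and 1.23 FPKM with sonidegib. Its log2 difference was 1.05 (SE 0.22, unadjusted p = 0.000143 by limma). Reg1, named here because it met this count, encodes a secreted lectin-like protein and had a log2 difference of 0.56.

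The other 7 genes nearest the threshold in the higher direction had limma unadjusted p-values of 0.000193 to 0.000504 and were each higher in both pairs of groups. Cd3g, the gamma chain of the T-cell receptor's CD3 complex, had a lowest, median and highest value of 0.635, 1.53 and 6.34 FPKM with the antibody, against 0.0746, 0.336 and 1.24 FPKM without (log2 difference 1.08, SE 0.24). S100a4, a calcium-binding protein of fibroblasts and leukocytes, was at 3.80, 8.51 and 36.3 FPKM with the antibody, against 1.21, 4.55 and 8.88 FPKM without (1.12, SE 0.25). Of the antibody values, 6 of the 8 of Cd3g and 4 of the 8 of S100a4 lay above every tumour without the antibody. Wfdc17, a secreted protein with a whey-acidic-protein domain, was at 8.52, 15.5 and 45.9 FPKM with the antibody, against 1.66, 5.53 and 27.2 FPKM without (1.20, SE 0.28), and its arms overlapped widely. Ly6c1, a surface protein of the Ly6 family, was at 2.65, 9.49 and 23.4 FPKM with the antibody, against 1.91, 3.31 and 8.35 FPKM without (1.01, SE 0.23). Plac8, a small cysteine-rich protein, was at 2.53, 4.37 and 20.7 FPKM with the antibody, against 0.942, 2.55 and 6.24 FPKM without (1.14, SE 0.27). The 4 combination tumours had the 4 highest values of Ly6c1. Inpp4b, a phosphoinositide phosphatase, was at 0.887, 2.60 and 3.79 FPKM with the antibody, against 0.579, 0.963 and 1.39 FPKM without (0.75, SE 0.18). Aim2, which senses DNA in the cytosol and assembles an inflammasome, was at 0.801, 1.39 and 2.47 FPKM with the antibody, against 0.393, 0.742 and 0.981 FPKM without (0.58, SE 0.13), and 7 of its 8 antibody values exceeded every value without. These are bulk tumours, in which more cells of a type and more RNA per cell cannot be told apart.

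**Figure D2:**
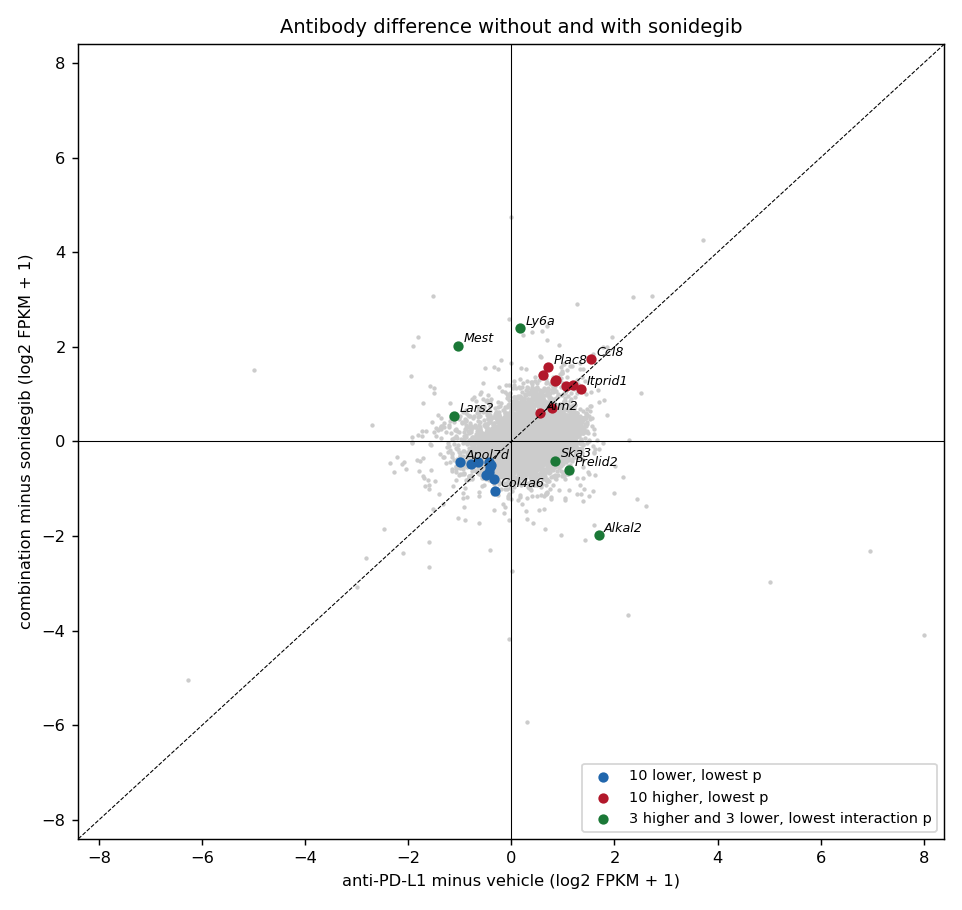
Log2 difference of each tested gene (FPKM + 1) between anti-PD-L1 and vehicle (x axis) and between the combination and sonidegib (y axis); the dashed line marks equal differences. The 10 genes higher with the lowest pooled p (red) lie in the upper right quadrant, the 10 lower (blue) in the lower left, and Alkal2 (green) in the lower right.

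The pairs of groups share no library, so they can be set side by side. Over the tested genes, which are not independent replicates, the differences in the 2 pairs had a Pearson r of 0.25 and a Spearman rho of 0.33. At an unadjusted p under 0.05, 3550 genes were higher with anti-PD-L1 than with vehicle and 326 with the combination than with sonidegib. The lists shared 60 genes, 1.69% of the first and 18.4% of the second. Lower genes numbered 162 and 321, of which 6 were shared, 3.70% of the first and 1.87% of the second. The median gene differed by 0.30 between anti-PD-L1 and vehicle and by -0.07 between the combination and sonidegib on the log2 scale. After median-of-ratios scaling both medians were near 0, at -0.02 and 0.00. Limma called 0 genes in either pair, with 3712 and 647 genes at an unadjusted p under 0.05. Leaving out vehicle replicate 4 gave 3927 calls between anti-PD-L1 and vehicle, 3785 of them higher, and leaving out combination replicate 1 gave 115 between the combination and sonidegib.

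Genes of the p200 family lay near the top of the higher genes, and the family was therefore drawn up after its values were seen and is described without a test. These genes sit in a cluster on chromosome 1 and encode sensors or regulators that bind nucleic acid; many are induced by interferons. All 13 members were in the table, and each had a higher median FPKM with the antibody than without; of all genes with a value above 0 and unequal medians, 60.6% did. The filter passed 7 members. Aim2 passed through the antibody arm alone, with no tumour at 1 FPKM without the antibody, and Ifi204, Ifi205 and Ifi211 mostly so, with fewer than 4 such tumours; a filter of that kind favours members that are high with the antibody. Paralogues of this cluster are alike in sequence, and Mndal overlaps Ifi203 on the same strand, so fragments may be shared between members.

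Short stretches of their promoters show a letter pattern. The pattern GAAA, any 2 bases, GAAA, the core of the interferon-stimulated response element, was searched on both strands in the 250 bases before each RefSeq start (GRCm38.p6). It occurred in a promoter entry of 9 of the 12 p200 genes that had an entry (75%), and in 2.98% of all 32851 promoter entries. A gene can have several entries, so the first share counts genes and the second counts entries. Members with alike flanks are not independent of each other, and the family was picked after its values were seen. The shares therefore give no separate support and were not tested. Each line gives 30 bases, 5′ to 3′ on the gene's strand, with the pattern in capitals; the p200 sites are shown because their flanks are alike. For Ifi205 the stretch is chr1:174031870-174031899, for Ifi211 chr1:173913064-173913093, for Mndal chr1:173880204-173880233, for Ifi207 chr1:173741831-173741860 and for Ifi214 chr1:173536017-173536046, all on the minus strand.
Ifi205: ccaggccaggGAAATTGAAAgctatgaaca
Ifi211: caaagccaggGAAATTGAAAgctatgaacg
Mndal: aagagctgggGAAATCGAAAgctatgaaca
Ifi207: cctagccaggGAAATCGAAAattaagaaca
Ifi214: agtctctgagGAAATCGAAAgcgatgcact
The sequence printed for Mndal is also that of Ifi203. A match to these letters is not evidence of binding in these tumours, and the other 3 members with an entry had none in this window. Aim2 and Ifi205 are given above. Ifi204 was at 0.902, 2.30 and 7.26 FPKM (lowest, median and highest) with the antibody, against 0.491, 0.824 and 2.30 FPKM without (log2 difference 0.81, SE 0.24, unadjusted p = 0.00308). Ifi202b was at 3.39, 5.45 and 17.6 FPKM with the antibody, against 1.81, 2.45 and 11.6 FPKM without (0.87, SE 0.33). The arms of both genes overlapped, with the higher values in the antibody arm. Mndal (0.69), Ifi203 (0.66) and Ifi211 (0.63) completed the 7. The 6 members under the filter had medians of 0.0302 to 0.677 FPKM with the antibody and 0.00754 to 0.377 FPKM without.

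Interferon-gamma response genes had a positive difference in every tested member (in 16 of 17 after median-of-ratios scaling, where Ifngr2 was at -0.02). The list held 17 tested members of 20, and 11 of the 17 had an unadjusted p under 0.05 in the higher direction and 0 in the lower one. Over all tested genes these shares were 13% and 1.67%, and 11.4% and 8.84% after median-of-ratios scaling; all list counts below are at such a p and read against them. After scaling 7 of the 17 were higher. Gbp5, among the 11 before scaling, had fewer than 4 tumours at 1 FPKM without the antibody, which the filter favours. The list's median log2 difference was 0.76 against 0.11 for all genes, and 0.62 after scaling. Iigp1, an immunity-related GTPase, was at 6.94, 32.1 and 356 FPKM (lowest, median and highest) with the antibody, against 3.41, 10.4 and 40.4 FPKM without (2.08, SE 0.62, unadjusted p = 0.00468 by limma). Gbp7, a guanylate-binding protein, differed by 0.66 (SE 0.24) and Irgm2, a further immunity-related GTPase, by 0.78 (SE 0.28). Relative to the median gene, the list stood at 0.32 between anti-PD-L1 and vehicle and at 0.98 between the combination and sonidegib; the difference between these values was not tested. Without combination replicate 1, 10 of the 17 passed the adjusted threshold, against 3.61% of all genes in that direction. That library was chosen from the same values, so this count gives no separate support either. Of 22 genes listed for the type I interferon response, none reached an unadjusted p under 0.05 in either direction, and the median was 0.21; Ifi44 differed by 0.59 (unadjusted p = 0.0545) and Ifit2 by 0.71 (unadjusted p = 0.0588).

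The same pattern of letters occurred in a promoter entry of 9 of the 15 interferon-gamma response genes that had an entry (60%). The gamma-activated site TTCNNNGAA did so in 8 of the 15 genes, against 7.02% of all promoter entries. These genes were listed for their known response to interferon-gamma, so neither share gives separate support. In the guanylate-binding genes the element reads on the opposite strand, as TTTC, any 2 bases, TTTC. The sites of Gbp7 and Irgm2 are shown because their expression is given above; they lie at chr3:142530273-142530302 and chr11:58214903-58214932, both plus strand.
Gbp7: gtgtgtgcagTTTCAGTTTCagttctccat
Irgm2: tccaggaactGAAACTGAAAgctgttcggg
Among the leading higher genes, Ifi205 alone held the GAAA pattern in this window, and none held the gamma-activated site. The promoters of Ccl8, Itprid1, Cd3g, S100a4, Aim2, Inpp4b, Ly6c1, Plac8 and Wfdc17 held neither pattern. The leading lower genes that had a promoter entry held neither as well.

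**Figure D3:**
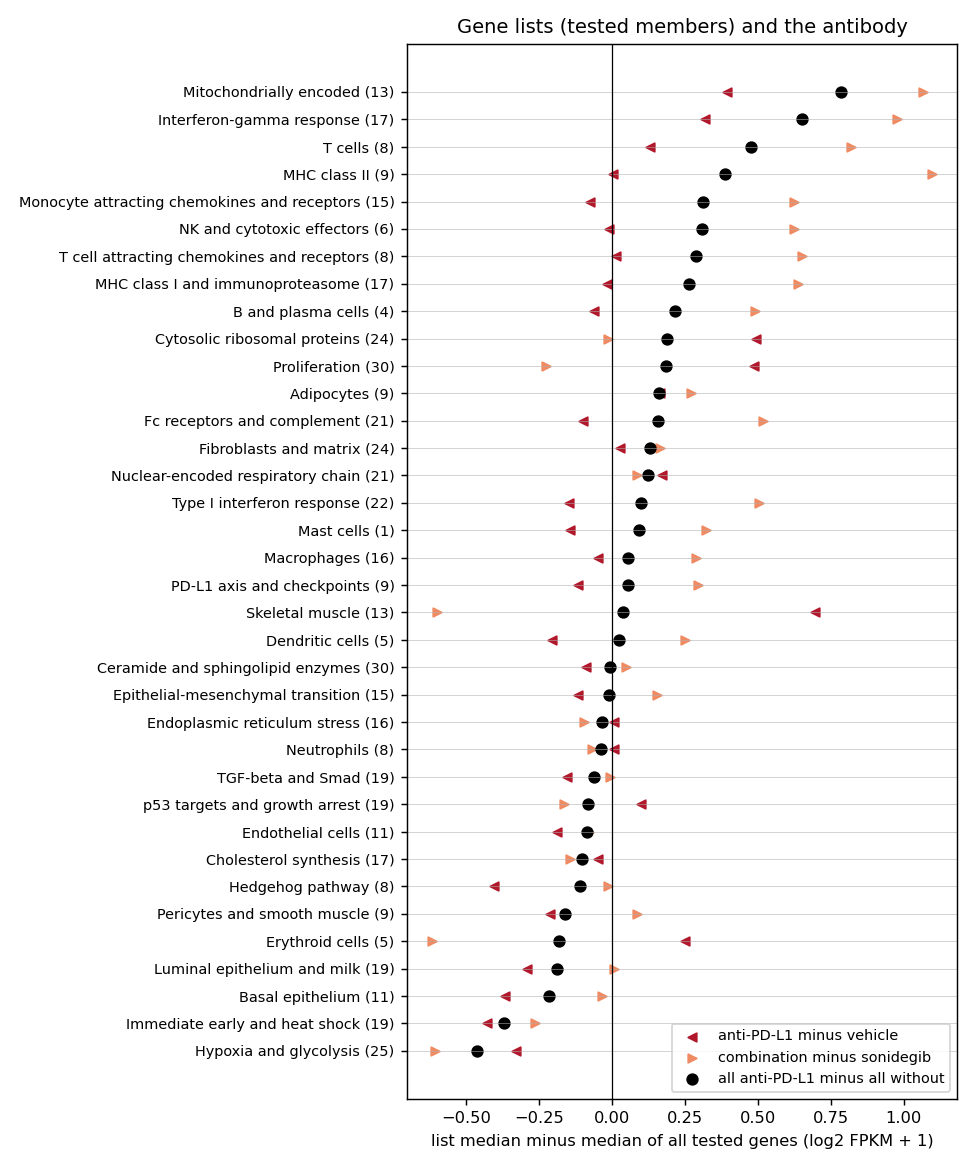
Median log2 difference (FPKM + 1) of each gene list minus the median of all tested genes, over all tumours (black) and within each pair of groups (triangles); tested members in parentheses. The mitochondrially encoded and interferon-gamma lists lie furthest right, hypoxia and glycolysis furthest left.

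Some antigen presentation genes also had an unadjusted p under 0.05, at a share that depended on the scaling. Of 9 tested genes of MHC class II, 4 did so in the higher direction (median 0.50); H2-Aa was at 22.1, 57.2 and 189 FPKM with the antibody, against 6.99, 30.2 and 53.7 FPKM without (1.18, SE 0.47, unadjusted p = 0.0239). Cd74, the class II invariant chain, differed by 0.99 (SE 0.43). Of 17 genes of MHC class I and the immunoproteasome, 6 were higher (median 0.38). B2m, the light chain of class I, was at 766, 1283 and 4819 FPKM with the antibody, against 399, 752 and 1191 FPKM without (1.09, SE 0.34), and 5 antibody values lay above all others. Relative to the median gene, the class II list stood at 0.01 between anti-PD-L1 and vehicle and at 1.10 between the combination and sonidegib, and the class I list at -0.02 and 0.64. After median-of-ratios scaling 1 of 9 and 2 of 17 members were higher at such a p, close to the 11.4% of all genes. Tapbp (tapasin) and Tap2, which load and carry peptides for class I, differed by -0.30 (unadjusted p = 0.164) and -0.14 (unadjusted p = 0.48).

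Genes of T cells and cytotoxic cells were low throughout these tumours, and most were under the filter. Of 21 T-cell genes 20 had a higher median FPKM with the antibody than without, as did 65.5% of all genes under the filter that had unequal medians. The filter passed 8 of the 21, and 5 of these had fewer than 4 tumours at 1 FPKM without the antibody, so a count over the 8 would favour members high with it. Besides Cd3g, the T-cell receptor constant genes Trbc1 (0.82, SE 0.25) and Trbc2 (1.12, SE 0.35), near-identical copies whose fragments may be shared, had an unadjusted p under 0.05. So did Trac (0.67, SE 0.23) and Thy1 (0.52, SE 0.17). Trbc1 passed the filter through the antibody arm alone, with no tumour at 1 FPKM without the antibody. Cd3g and Trac were among those with fewer than 4 such tumours. Lck, a kinase of T-cell receptor signalling, differed by 0.09 (unadjusted p = 0.518), the transcription factor gene Tcf7 by 0.08 (unadjusted p = 0.583) and the co-stimulatory receptor gene Cd27 by 0.08 (unadjusted p = 0.69). The summed level of the whole list was 12.5, 18.2 and 44.0 FPKM (lowest, median and highest) with the antibody, against 6.40, 11.6 and 20.3 FPKM without. Of 18 genes of natural killer and cytotoxic cells 17 had a higher median with the antibody; 6 passed the filter, 4 of them with fewer than 4 tumours at 1 FPKM without the antibody. Xcl1, a chemokine of natural killer and CD8 T cells, was at 0.808, 3.04 and 8.93 FPKM with the antibody, against 0.122, 0.711 and 2.84 FPKM without (1.13, SE 0.28, unadjusted p = 0.000777). The antibody values of Xcl1 exceeded every other tumour in 5 of 8 cases. Gzmb, which encodes granzyme B, differed by 0.25 (SE 0.16, unadjusted p = 0.118).

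A further 11 immune and Hedgehog genes under the filter were compared by their mean FPKM in exact two-sided permutation tests within sonidegib strata, with 4900 arrangements, a smallest possible p of 0.000408, and no adjustment over the 11 genes. Cd80, a ligand of CD28 that also binds PD-L1, was at 0.136, 0.248 and 0.357 FPKM with the antibody, against 0.00896, 0.113 and 0.167 FPKM without (exact p = 0.00327). Cd8a, a chain of the CD8 co-receptor, was at 0.285, 0.858 and 2.37 FPKM with the antibody, against 0.0598, 0.269 and 0.782 FPKM without (exact p = 0.0224). Ifng, the interferon-gamma gene, was at 0.0409, 0.265, 0.0793 and 0 FPKM with anti-PD-L1, and all 4 vehicle tumours were listed at 0. With the combination Ifng was at 0.102, 0.246, 0.525 and 0.239 FPKM, against 0.0176, 0.0515, 0.108 and 0.192 FPKM with sonidegib (exact p over both pairs = 0.0143). At such levels a value rests on few fragments, and a listed 0 can be a failed estimate. Cd274 itself was at 0.417, 0.680 and 2.07 FPKM with the antibody, against 0.319, 0.462 and 1.09 FPKM without (exact p = 0.0824), and Pdcd1, which encodes PD-1, at 0.255, 0.609 and 1.24 FPKM with the antibody, against 0.0557, 0.321 and 0.805 FPKM without (exact p = 0.0759). Their arms overlapped. The exact p was 0.062 for Pdcd1lg2, 0.0588 for Cd3e, 0.0506 for Prf1 (perforin), 0.162 for Cd4, 0.757 for Foxp3, which marks regulatory T cells, and 0.582 for the Hedgehog target Gli1.

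Among genes of the PD-L1 axis and other checkpoints, 9 of 20 passed the filter and 1 had a p under 0.05, Cd86, a ligand of CD28 (0.66, SE 0.23, unadjusted p = 0.00858); Havcr2 differed by 0.34 (unadjusted p = 0.0663) and the list's median was 0.17. Of 15 genes listed under monocyte chemokines and their receptors, 6 were higher and 0 lower at that p (median 0.43). After median-of-ratios scaling 4 were higher. With GC trends removed this median was 0.07. Ccr2, the receptor that brings monocytes out of the bone marrow, was at 1.15, 2.63 and 9.30 FPKM with the antibody, against 0.344, 1.14 and 2.08 FPKM without (0.98, SE 0.24, unadjusted p = 0.000525). Ccl11 (0.66, SE 0.16) and Ccl7 (0.63, SE 0.22) lie near Ccl8 on chromosome 11. Ccl11 passed the filter through the antibody arm alone, with no tumour at 1 FPKM without the antibody. The count of 6 thus includes a member that such a filter favours. Of 8 tested genes for T-cell chemokines and their receptors, 5 were higher (median 0.40). After median-of-ratios scaling 2 were higher and 1 lower. Both Cxcl11 and Cxcr6 are among the 5, and each had fewer than 4 tumours at 1 FPKM without the antibody. The filter thus favours this count as well. Cxcl9, an interferon-gamma-induced chemokine, was at 0.536, 3.65 and 21.2 FPKM with the antibody, against 0.445, 1.15 and 4.76 FPKM without (1.27, SE 0.48, unadjusted p = 0.0188). Cxcr6 (0.60) and Cxcl11 (0.55) were others, while the chemokine receptor gene Cxcr4 differed by -0.34 (unadjusted p = 0.102) and Cxcl10 by 0.30 (unadjusted p = 0.233), with -0.21 between anti-PD-L1 and vehicle and 0.80 between the combination and sonidegib.

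Myeloid genes gave a mixed picture. Of 21 genes for Fc receptors and complement, 8 were higher (median 0.27), but 3 after median-of-ratios scaling (median 0.14), near the share of all genes. Among the 8 was the activating Fc receptor Fcgr4, at 0.992, 2.01 and 5.10 FPKM with the antibody, against 0.568, 1.13 and 1.93 FPKM without (0.65, SE 0.19, unadjusted p = 0.00298). Fcgr3 (0.49) and C1s1 (0.68) were also among them, and Fcgr1 differed by 0.21 (unadjusted p = 0.232). Of 16 macrophage genes 3 were higher, against 13% of all genes, and 1 after scaling: the 3 were Spp1 (0.99, SE 0.40), Mrc1 (0.47, SE 0.17) and Lyz2 (0.57, SE 0.23), while Itgam differed by -0.18, Csf1r by -0.10 and Cd68 by -0.04 (unadjusted p of 0.223, 0.574 and 0.868). The macrophage marker Adgre1 had a median of 5.58 FPKM with the antibody and 5.56 FPKM without (0.22, unadjusted p = 0.207). No tested gene of neutrophils (8 genes, median 0.08), dendritic cells (5 genes, 0.14) or mast cells (1 gene, Kit, 0.21) reached an unadjusted p under 0.05; Il1b (0.46), Mmp9 (-0.39), Clec10a (0.40) and Fscn1 (-0.23) had the lowest p of the first 2 lists. Of 4 tested genes of B and plasma cells, Igkc (1.43, SE 0.45) and Ighm (0.52, SE 0.17) were higher. Sdc1 differed by -0.24 (unadjusted p = 0.301) and Xbp1 by 0.14 (unadjusted p = 0.561). The whole list of 15 genes summed to a median of 391.1 FPKM with the antibody and 379.5 FPKM without.

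Fibroblast and matrix genes were mixed, and genes of the vessel wall were near the median gene. Of 24 fibroblast and matrix genes 9 were higher and 0 lower (median 0.24), against 13% and 1.67% of all genes; after median-of-ratios scaling 6 were higher and 1 lower, and 8 of the 24 differences were negative. Dcn, which encodes the proteoglycan decorin, was at 4.41, 28.5 and 69.2 FPKM with the antibody, against 1.67, 6.58 and 22.7 FPKM without (1.45, SE 0.37, unadjusted p = 0.00106). Lum, encoding lumican, was at 2.28, 9.33 and 27.4 FPKM with the antibody, against 0.377, 2.59 and 7.33 FPKM without (1.38, SE 0.35), and Thy1 differed by 0.52 (SE 0.17). Fap, among the 9, had fewer than 4 tumours at 1 FPKM without the antibody, which the filter favours. Fibronectin (Fn1, -0.35), tenascin C (Tnc, -0.36) and Col6a3 (-0.36) had negative differences, with unadjusted p-values of 0.13, 0.212 and 0.219. Of 9 adipocyte genes 3 were higher: Fabp4 (1.22, SE 0.31), Cd36 (0.68) and Lpl (0.49). Cd36 also had fewer than 4 tumours at 1 FPKM without the antibody. Pericyte genes had 2 of 9 higher (Rgs5 0.69, Kcnj8 0.33; Notch3 differed by -0.42, unadjusted p = 0.0569, and Abcc9 by 0.22, unadjusted p = 0.166), and endothelial genes 2 of 11 (Emcn 0.45, Cd34 0.40; Eng -0.36, unadjusted p = 0.0804, Pecam1 0.27, unadjusted p = 0.146), against 13% of all genes. After median-of-ratios scaling pericytes had 1 higher and 1 lower, and endothelium 2 higher and 2 lower. Skeletal muscle genes summed to 5.02 to 928 FPKM with the antibody and 11.3 to 301 FPKM without, with 0 of 13 at such a p (Mb 0.30, Myh2 0.15); the list's median was 1.00 between anti-PD-L1 and vehicle and -0.67 between the combination and sonidegib. Erythroid genes also had 0 of 5, with Hba-a1 at -0.32 and Hba-a2 at -0.48, paralogues that may share fragments.

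Type IV collagen genes were lower with the antibody. This group and the other basement membrane genes were also drawn up after their values were seen and are described without a test. The chains assemble into the sheet on which epithelium and endothelium rest. Col4a2 had the lowest p of all lower genes: it was at 9.32, 11.5, 11.05 and 10.8 FPKM with anti-PD-L1, against 14.9, 17.6, 15.8 and 13.8 FPKM with vehicle. With the combination it was at 10.8, 6.34, 8.09 and 5.12 FPKM, against 14.7, 15.2, 9.94 and 11.7 FPKM with sonidegib. The anti-PD-L1 and vehicle tumours did not overlap, and combination replicate 1 lay within the range of the sonidegib tumours. How many of all genes separated in the lower direction between anti-PD-L1 and vehicle was not counted. The log2 difference was -0.61 (SE 0.16, unadjusted p = 0.000904, limma adjusted p = 0.32). Col4a1 was at 13.1, 23.6 and 30.9 FPKM (lowest, median and highest) with the antibody, against 22.4, 33.6 and 44.4 FPKM without (-0.57, SE 0.18, unadjusted p = 0.0042). Col4a6 was at 4.14, 10.7 and 16.8 FPKM with the antibody, against 13.4, 17.1 and 20.3 FPKM without (-0.69, SE 0.21, unadjusted p = 0.0042), and Col4a5 differed by -0.25 (SE 0.16, unadjusted p = 0.127). In each of the first 3 no antibody value exceeded the median of the tumours without it. Col4a1 (11198423 to 11312826, minus strand) and Col4a2 (11312805 to 11449287, plus strand) lie head to head on chromosome 8, and Col4a6 and Col4a5 do so on the X chromosome. Col4a3 and Col4a4 were under the filter.

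Of 12 tested laminin, nidogen and perlecan genes, 3 had an unadjusted p under 0.05 in the lower direction and 0 in the higher, against 1.67% of all tested genes in the lower direction, and 9 of the 12 differences were negative (median -0.25). Lama5, a laminin alpha chain of epithelial basement membrane, was at 5.25, 10.6 and 14.9 FPKM with the antibody, against 10.7, 13.5 and 24.2 FPKM without (-0.53, SE 0.19, unadjusted p = 0.011). Hspg2, encoding perlecan, differed by -0.45 (SE 0.20) and Nid2 by -0.30 (SE 0.14). After median-of-ratios scaling the medians were -0.75 for the 4 tested collagen chains and -0.40 for these 12 genes. The share of all tested genes lower at such a p was then 8.84%, and members of these groups were not counted under that scaling.

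**Figure D4:**
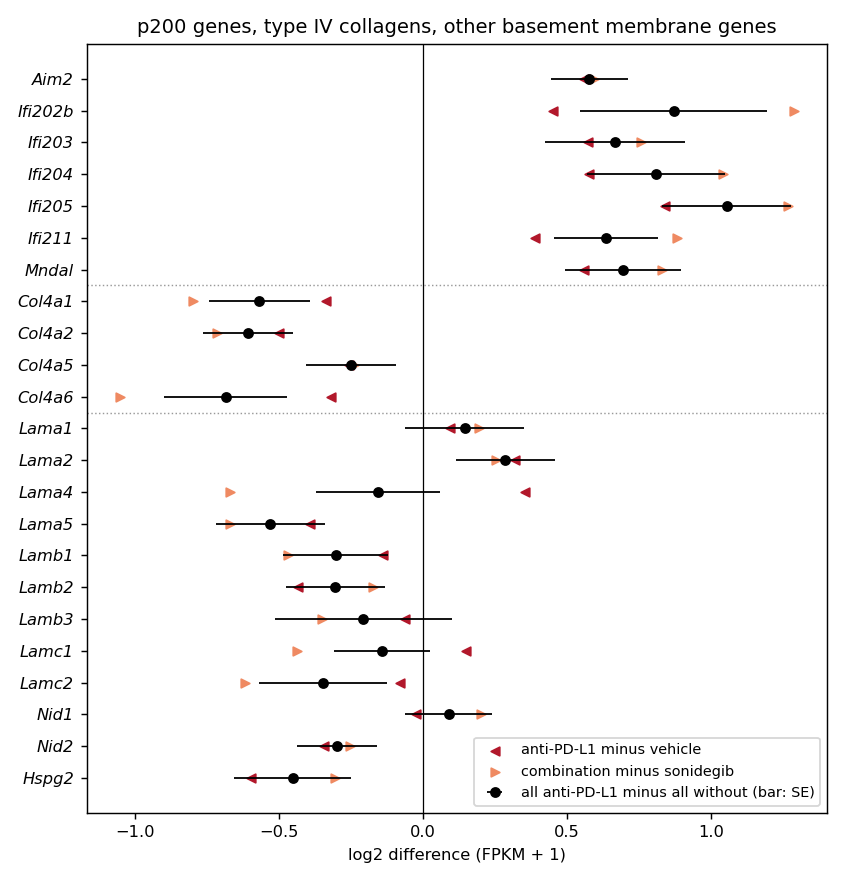
Log2 difference (FPKM + 1) of the tested p200, type IV collagen and other basement membrane genes, over all tumours with its standard error (black) and within each pair of groups (triangles). The 7 p200 genes lie right of 0 and the 4 collagen genes left of 0 in both pairs.

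The other lower genes had unadjusted limma p-values of 0.00162 to 0.0062 and log2 differences of -0.72 (Apol7d) to -0.43 (Grb7). Apol7d, annotated as an antisense transcript at 71652837 to 71662843 on the plus strand of chromosome 1, was at 0.996, 4.05 and 5.76 FPKM with the antibody, against 5.11, 6.64 and 7.12 FPKM without, and 7 of its 8 antibody values lay below every other tumour. Whether counting used strand is not given in the sources used here, so fragments of a gene on the opposite strand cannot be told apart. Grb7, an adaptor of receptor tyrosine kinases, was at 5.89, 6.65 and 7.75 FPKM with the antibody, against 6.16, 9.63 and 11.9 FPKM without. Its neighbour Erbb2, a receptor gene often co-amplified with Grb7 in human breast cancer, was at 6.90, 8.33 and 9.35 FPKM with the antibody, against 9.18, 10.5 and 19.6 FPKM without (-0.48, SE 0.16, unadjusted p = 0.00785). Both lie on the plus strand of chromosome 11, Erbb2 from 98412470 to 98437716 and Grb7 from 98446394 to 98455373, and neither had an antibody value above the median of the tumours without it. Ltbp3, which binds latent TGF-beta, differed by -0.63 (SE 0.20), Phldb1 by -0.54 (SE 0.17), the kinase gene Wnk4 by -0.54 (SE 0.17), Dennd3, an exchange factor of Rab proteins, by -0.48 (SE 0.15) and Sbf1, a myotubularin-related protein, by -0.45 (SE 0.14). All 10 leading lower genes were lower in both pairs of groups.

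Hypoxia and glycolysis genes had the lowest median of the 36 lists, -0.35, and 0 of the 25 tested members had a positive difference. The pairs of groups were unlike: between the combination and sonidegib 0 of the 25 were positive (median -0.68), and between anti-PD-L1 and vehicle 12 were (median -0.03), a contrast that was not tested. Slc2a1, the glucose transporter GLUT1, was at 7.73, 35.9 and 58.5 FPKM with the antibody, against 18.3, 54.3 and 93.2 FPKM without (-0.84, SE 0.34, unadjusted p = 0.024). Car9, a carbonic anhydrase of hypoxic cells, was at 9.79, 17.0 and 29.5 FPKM with the antibody, against 18.8, 25.5 and 31.1 FPKM without (-0.58, SE 0.22), and Ak4, an adenylate kinase, differed by -0.75 (SE 0.31). These were the 3 members at an unadjusted p under 0.05 (1.67% of all genes in the lower direction), and 9 were after median-of-ratios scaling (8.84% of all genes), where the list's median was -0.52. The arms overlapped for each, and Eno1, an enolase, differed by -0.48 (unadjusted p = 0.103). Of 19 immediate early and heat shock genes, 16 were negative and 1 had such a p, 4 after scaling. Hspa1a, a heat shock protein, differed by -0.82 (SE 0.34) and its near-identical copy Hspa1b by -0.64 (unadjusted p = 0.0595), so fragments may be shared.

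All 13 mitochondrially encoded genes were higher with the antibody, 11 at an unadjusted p under 0.05 (13% of all genes), with a median of 0.90. After median-of-ratios scaling 8 of the 13 had such a p (11.4% of all genes), with a median of 0.73. The 13 genes encode subunits of the respiratory chain. mt-Atp8 (1.32, SE 0.42), mt-Cytb (1.15, SE 0.41), mt-Nd3 (0.90, SE 0.32) and mt-Nd1 (0.98, SE 0.35) had the lowest p. Their summed level was 9529, 14340 and 41950 FPKM (lowest, median and highest) with the antibody, against 3552, 10750 and 18640 FPKM without, and combination replicates 2 and 4 held the highest sums (41950 and 38520 FPKM). Without combination replicate 1, 0 of the 13 passed the adjusted threshold. Nuclear genes of the respiratory chain had 5 of 21 higher (median 0.24; Ndufa4 0.84, Ndufb3 0.72, Ndufa1 0.64, Cox7c 0.79). Cytosolic ribosomal protein genes had 6 of 24 higher (median 0.30; Rpl7 0.89, Rpl5 0.72, Rps24 0.65, Rpl30 0.65). After scaling the nuclear list had 4 higher and 1 lower, and the ribosomal list 3 of 24 higher. In the pairs of groups the ribosomal list stood at 0.50 and -0.01 relative to the median gene. Genes higher at an unadjusted p under 0.05 had a median GC content of 42.7%, the lower ones 56.8% and all others 50.2%. Removing each library's GC trend gave 840 higher and 736 lower genes in place of 1964 and 252; the part that GC content plays in single genes was not tested.

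Epithelial lists had few members at such a p. Of 19 luminal and milk genes, 2 milk protein genes were higher, Csn1s1 (alpha casein), at 3.46, 26.9 and 317 FPKM with the antibody, against 0.794, 1.82 and 17.1 FPKM without (2.90, SE 0.83, unadjusted p = 0.00352), and Wap (whey acidic protein), at 12.9, 37.0 and 105 FPKM with the antibody, against 5.17, 14.5 and 27.9 FPKM without (1.37, SE 0.37); Erbb2, above, was the 1 lower, and Prlr, the prolactin receptor, differed by 0.42 (unadjusted p = 0.0902). For each of these 2, 4 of the 8 antibody values lay above every tumour without it. Of 11 basal genes 1 was lower, Sox10, a transcription factor of neural crest and mammary progenitors (-0.54, SE 0.20), and Oxtr differed by 0.42 (unadjusted p = 0.072). Of 15 genes of epithelial-mesenchymal transition 3 were higher and 1 lower: Zeb2 (0.46), Zeb1 (0.44) and Tgfbr1 (0.62) against Vim (-0.52); after median-of-ratios scaling 2 were higher and 5 lower.

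The remaining lists had medians of 0.00 to 0.30 and at most 4 members at an unadjusted p under 0.05 in a direction. Proliferation genes had 1 of 30 higher, Birc5 (0.83, SE 0.39), and Mki67 differed by 0.66 (unadjusted p = 0.0551), by 1.35 between anti-PD-L1 and vehicle and by -0.04 between the combination and sonidegib. The whole list was split in that way: 30 of 30 differences were positive between anti-PD-L1 and vehicle (median 0.79), and 3 of 30 between the combination and sonidegib (median -0.29). Relative to the median gene these medians were 0.49 and -0.22, and their difference was not tested. Hedgehog genes, of the pathway that sonidegib inhibits, had 0 of 8 tested members at such a p; the receptor and target gene Ptch1 differed by -0.06 (unadjusted p = 0.729), Sufu by -0.31 and Gas1 by 0.24. Ceramide and sphingolipid enzymes had 4 of 30 higher (Sptssa 0.90, Ormdl1 0.61, Ormdl2 0.52, Asah1 0.50), near the background share, and 2 of 30 after scaling. TGF-beta genes had 1 of 19 higher and 2 lower (5 lower after scaling; Tgfbr1 against Ltbp3 and Ltbp2, at -0.42; Tgfb3 0.44, unadjusted p = 0.0528). The p53 targets had 1 of 19 (Trp53inp1 0.93; Sesn1 0.33, unadjusted p = 0.0511), cholesterol synthesis 1 of 17, with 3 lower after scaling (Idi1 0.62; Msmo1 0.46, unadjusted p = 0.0526) and endoplasmic reticulum stress 0 of 16 (Hsp90b1 0.55, unadjusted p = 0.0722; Dnajb9 0.35, unadjusted p = 0.143).

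Whether the antibody difference was the same with and without sonidegib was tested as an interaction, and Alkal2, which encodes a secreted ligand of the receptors ALK and LTK, was the 1 gene called (0.00662% of those tested). It was at 4.53, 5.86, 4.04 and 16.3 FPKM with anti-PD-L1, against 3.52, 0.419, 2.56 and 0.331 FPKM with vehicle. With the combination it was at 1.29, 1.69, 1.19 and 1.51 FPKM, against 9.92, 8.44, 5.71 and 11 FPKM with sonidegib. Neither pair overlapped, with the antibody groups on opposite sides of their controls: the log2 difference was 1.69 without sonidegib and -1.98 with it. The interaction was -3.68 (SE 0.56, limma adjusted p = 0.049), and pooled over both pairs the gene differed by -0.15. The call was lost in 12 of 16 fits that left out 1 library, those without vehicle replicate 2, 3 or 4, anti-PD-L1 replicate 1 or 2, any sonidegib replicate, or combination replicate 2, 3 or 4, in which the interaction was -3.88 to -3.40. It was also lost under 9 other settings. Alkal2 lies on chromosome 12 at 30884322 to 30893854, plus strand.

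**Figure D5:**
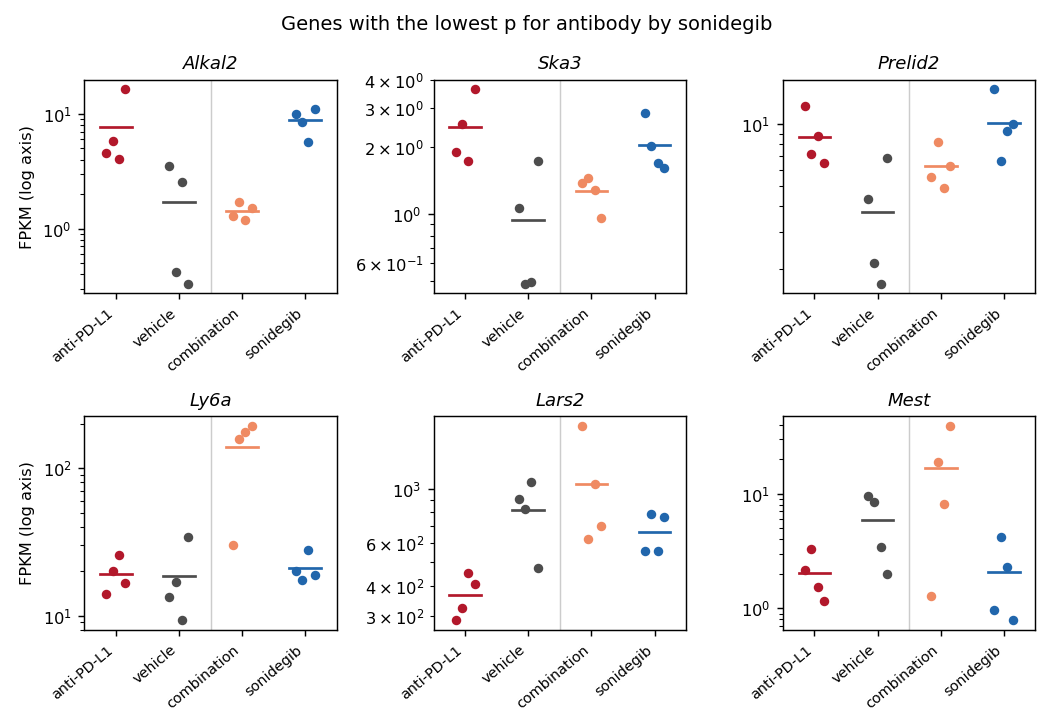
FPKM (log axis) in each tumour by group for the 3 genes with the lowest interaction p in the lower direction (top) and the higher direction (bottom); bars are group means (n = 4). For Alkal2 and Ska3 the antibody groups do not overlap their controls in either pair, with opposite directions.

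The next genes were not called (adjusted p = 0.485 each). Ska3, a kinetochore protein of mitosis, had an interaction of -1.26 (SE 0.32): it was at 1.91, 2.55, 1.74 and 3.63 FPKM with anti-PD-L1, against 1.06, 0.486, 0.494 and 1.73 FPKM with vehicle. With the combination it was at 1.38, 1.45, 1.28 and 0.959 FPKM, against 2.85, 2.02, 1.69 and 1.62 FPKM with sonidegib. Both pairs separated, in opposite directions, and Prelid2 had an interaction of -1.72 (SE 0.44). Ly6a, which encodes the stem-cell and lymphocyte surface protein Sca-1, was at 30.1, 157, 175 and 193 FPKM with the combination, against 20.1, 17.6, 27.8 and 18.8 FPKM with sonidegib. With anti-PD-L1 it was at 14.1, 20.0, 25.7 and 16.8 FPKM, against 13.3, 17.0, 9.26 and 34.4 FPKM with vehicle. Combination replicates 2, 3 and 4 thus stood far above the rest, and the interaction was 2.22 (SE 0.67). Mest, an imprinted gene, had an interaction of 3.06 (SE 1.01) and Lars2, the mitochondrial leucyl-tRNA synthetase, one of 1.65 (SE 0.53). At an unadjusted p under 0.05 the interaction of 1492 genes passed, 1420 of them negative, beside a median interaction of -0.35 over all genes.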

How the data were processed

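Per the labels' protocols, RNA was extracted with Qiazol and stranded libraries were made after ribosomal RNA depletion, while another label names polyadenylated RNA, a conflict left unresolved. The deposited values are FPKM that the authors made; the submitters' processing notes name TopHat, Cufflinks, GRCm38.p6 and mm10, with versions not given in the sources used here. Cufflinks assigns fragments of overlapping genes by a statistical model, and FPKM shifts when a few transcripts are very abundant. Coordinates came from GENCODE M21 (GRCm38), which matched 53992 of 55146 identifiers with their version and 54547 without. Depth was estimated from the FPKM step of 1 fragment.

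Limma 3.58.1 in R 4.3.3, with intensity trend and robust variances, was fitted to log2(FPKM + 1) with no further scaling, for the genes that reached 1 FPKM in 4 or more libraries. Terms were antibody and sonidegib; a model with 1 mean per group gave the interaction and the differences within each pair of groups. Tests were two-sided with Benjamini-Hochberg adjustment at 0.05, and the script was tested on simulated data. Genes named were those past the threshold and, up to 10 in each direction (3 for the interaction), those with the lowest p, a mean of at least 1 FPKM and no predicted or clone name, plus a fixed set of 22 immune and Hedgehog genes and 2 to 4 members of each list. Values of 3 genes that this rule picks are not reported here, though the counts over lists include them. Of 664 entries in 36 lists, 659 were in the table, 523 passed the filter, and the others were not analysed here. The members and lists were chosen with earlier results of these data known. The S numbers that tie columns to libraries run through the groups in turn, so library order and treatment cannot be told apart for single groups. Other settings were median-of-ratios and quantile scaling, other filters, a pseudocount of 0.1, array weights, a replicate block, removal of GC trends and leaving out each library.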

Additional observations from a re-analysis of the deposited data

Results flagged for a closer look

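Single tumours stood apart from their own group in 7 of 196 groups of 4 values checked (184 from 46 named genes in each group and 12 from 3 library measures), judged by the gap to the nearest other value over the group's range; chance flags about 1 in 20, or 9.8 here. With anti-PD-L1, replicate 2 was low for Cd274 (0.555 FPKM, the others 0.668 to 0.689) and replicate 4 high for Cd4 (1.42 FPKM, the others 0.387 to 0.524). Combination replicate 1 was low for Cd4 (0.320 FPKM, the others 0.777 to 0.873) and for Ly6a (30.1 FPKM, the others 157 to 193), and high for Ltbp3 (26.0 FPKM, the others 19.2 to 19.8). With sonidegib, replicate 2 was low for Ccl8 (6.77 FPKM, the others 27.5 to 34.6) and high for Phldb1 (7.42 FPKM, the others 5.89 to 6.08). Alkal2 was flagged because its interaction passed the adjusted threshold, at -3.68 on the log2 scale. Its antibody difference had opposite signs without and with sonidegib.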

How the results depend on the processing

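The count of 0 called genes over all tumours was the same under median-of-ratios scaling, quantile normalization, no filter, a filter on the mean, a pseudocount of 0.1, no trend and robust estimation, array weights, no sonidegib factor, 1 mean per group and GC trend removal. With the replicate block it was also 0, with a smallest adjusted p of 0.36. Same-numbered libraries had correlations of -0.434 to 0.343 over 24 pairs, 4 of them over 0.1, and 0 libraries correlated best with their own number. The labels name no donor, so whether the numbers pair tumours is not known. Leaving out 1 library gave 0 to 567 calls, and median-of-ratios scaling without combination replicate 1, chosen after seeing the data, gave 1902. At an unadjusted p under 0.05, higher genes numbered 840 with GC trends removed and 996 to 3328 with 1 library left out (1160 and 1272 without anti-PD-L1 replicates 1 and 2, 996 and 3060 without vehicle replicates 3 and 4, 3328 and 1242 without combination replicates 1 and 4). Lower genes numbered 1335 under median-of-ratios scaling, 1464 under quantile normalization, 451 with no filter, 1392 with array weights, 736 with GC trends removed, and 132 to 812 with 1 library left out. Between anti-PD-L1 and vehicle, array weights gave 2024 calls and leaving out 1 library 0 to 3927; between the combination and sonidegib these were 590 and 0 to 115. The cause was not tested.

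The interaction gave 0 calls under median-of-ratios scaling, quantile normalization, no filter, the filter on the mean, a pseudocount of 0.1, no trend and robust estimation, array weights, the replicate block and GC trend removal, and 0 to 5 with 1 library left out. The Alkal2 interaction was then -3.23 under median-of-ratios scaling, -3.22 under quantile normalization, -4.96 with a pseudocount of 0.1, -3.27 with array weights, -3.39 with GC trends removed, -3.68 under the other 4, and -3.99 to -3.28 with 1 library left out. The 10 leading higher and 10 leading lower genes did not change sign in 130 values each. Named genes with differences near 0 did: with GC trends removed Abcc9 was -0.022, Dnajb9 -0.026 and Ska3 -0.065; Xbp1, 1 of the endoplasmic reticulum stress genes, was -0.034 under median-of-ratios scaling and Myh2 -0.13 with a pseudocount of 0.1. With 1 library left out Myh2 ranged from -0.31 to 0.40, Hba-a1 from -0.56 to 0.057, Ptch1 from -0.17 to 0.0018 and the pooled Alkal2 difference from -0.47 to 0.046. Of 468 list medians 465 moved less than their spread; with GC trends removed the monocyte chemokine median was 0.07 and the neutrophil median -0.23, and without sonidegib replicate 2 the pericyte median was 0.22.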
